A study of Canis lupus familiaris with 17 samples.

Results

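Notch1 encodes a transmembrane receptor through which a cell reads ligands on its neighbours. It was followed here as the single transcript that carries the gene name Notch1 in the study's list of genes that differ on scribble silencing (XM_537795.3, 7923 bases), 1 of 21571 transcripts quantified. Membership in that list rests on the measured levels in scribKD and control cells, so Notch1 was chosen by its difference between these populations, and that difference is given below as a description, without a test. No other transcript of the files carried the name of a Notch receptor, so 1 of the 4 mammalian receptors could be examined.

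RNA was sequenced from MDCK-II cells, an established dog kidney epithelial line, that carry a tetracycline-inducible short hairpin RNA against scribble. Control cells were the scribKD line without tetracycline (scribKD-Tet, 6 libraries), scribKD cells were the same line with 10 µg/ml tetracycline from plating (scribKD+Tet, 6 libraries), and scribRES cells (scribRES+Tet, 4 libraries) are a population of the scribKD line that outlived prolonged culture in tetracycline, was expanded without it, resists cell competition and was given the same 10 µg/ml. RNA was taken 67 h after plating in every case. All 3 populations thus share the hairpin construct, and control cells differ from scribKD cells also by the absence of tetracycline, so the drug and the knockdown cannot be told apart. scribRES is 1 selected population, sampled in 2 experiments. Experiments 1, 2 and 3 each hold 2 control and 2 scribKD libraries (replicates 1 and 2, 3 and 4, and 5 and 6), and experiments 2 and 3 also hold 2 scribRES libraries each (replicates 3 to 6). The study counts experiments as its biological replicates, and nothing states that the libraries of an experiment came from separate cultures. Its methods, in contrast, give at least 4 replicates per condition for the expression test, which for scribRES is the number of libraries. Libraries of an experiment are thus not taken as independent here, and p-values over libraries measure only the spread between these libraries. When each experiment was averaged first, limma called 0 transcripts in scribRES over scribKD (463 at an unadjusted p under 0.05) and 0 in scribRES over control (1153 at an unadjusted p under 0.05).

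As background, Notch receptors are cut after ligand binding, first by a surface protease and then by the gamma-secretase complex, and the freed intracellular part enters the nucleus. There it joins the DNA-binding protein RBPJ, a Mastermind coactivator and the acetyltransferases p300 and CBP to switch on targets that corepressors such as SPEN and the Groucho family otherwise hold down. Signals of this pathway pattern the segments of the developing kidney tubule, and a cell's response depends on the balance of receptor and ligand it carries.

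Levels are given as RPKM, reads per kilobase of transcript, scaled to the read total of the library. These totals lay between 12612666 and 29002711 reads per run, recovered from the RPKM values themselves. Whether they hold all mapped reads or only those on the transcripts was not tested. Scrib, the gene targeted by the hairpin, stood between 24.6 and 34.6 RPKM in control, between 9.75 and 16.2 in scribKD and between 12.2 and 14.8 in scribRES libraries, so the knockdown was present in every library of both tetracycline groups. Of 13 markers of kidney tubule epithelium, 5 had a named transcript (Cldn2, Ocln, Krt19, Pax8 and Cdh16), of which none was at 0 in any library, and their summed level ran from 1299 to 2095 RPKM in control, from 800 to 1315 in scribKD and from 1037 to 1647 in scribRES libraries. Vim was the only named one of 10 mesenchymal markers, at 3321 to 4184 RPKM in control, 1385 to 1655 in scribKD and 1593 to 2089 in scribRES libraries. None of 6 blood cell markers had a named transcript. Lower in scribKD than in control cells were Krt19, which makes up most of the kidney sum, by -0.57 on the log2 scale (limma adjusted p = 0.024), Pax8 by -0.73 (adjusted p = 0.0002) and Vim by -1.26 (adjusted p = 1e-06). Ocln did not pass there (0.028, adjusted p = 0.85). Krt19, Pax8, Vim, Cldn2 and Cdh16 owe their names to the study's list for scribKD against control. Their difference between these populations was thus part of how they came to be named, and its p-values are no independent evidence. Ocln was named from a RefSeq gene table. In scribRES over scribKD cells none of Krt19, Pax8, Vim and Ocln passed, and in scribRES over control Vim alone did, again lower (limma adjusted p = 0.00057). Of all tested transcripts, 9.52 percent passed in scribKD over control, 1.46 percent in scribRES over scribKD and 7.89 percent in scribRES over control. The lack of a pass in scribRES over scribKD is thus no particular trait of these markers. For Pax8 the scribRES over scribKD difference was -0.41 in experiment 2 and 0.53 in experiment 3. Cldn2 and Cdh16 missed the limits for testing between populations. Cldn2 stood at 66.6 to 296 RPKM in control and 13.8 to 84.6 in scribKD libraries. In scribRES libraries Cldn2 was at 11.9 and 10.6 in experiment 2 and at 165 and 160 in experiment 3. Cdh16 ran from 0.653 to 6.55, 0.174 to 1.13 and 0.0286 to 1.98 RPKM in control, scribKD and scribRES. The part of these markers in the Notch1 levels was not tested. In bulk RNA, fewer cells that express a gene and less RNA per cell cannot be told apart.

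Notch1 was highest in control cells in every experiment, lowest in scribKD cells in every experiment, and in between in scribRES cells wherever these were sampled. Its control level was 26.1 and 26.1 RPKM in experiment 1, at 21.4 and 22.4 in experiment 2 and at 20.4 and 15.7 in experiment 3. In scribKD libraries it stood at 14.8 and 14.5 RPKM in experiment 1, at 10.5 and 8.67 in experiment 2 and at 9.56 and 11.4 in experiment 3. In scribRES libraries it stood at 12.9 and 12.6 RPKM in experiment 2 and at 14.0 and 13.3 in experiment 3. Ordered from the lowest library, the 4 scribKD libraries of experiments 2 and 3 came first, the 4 scribRES libraries next, the 2 scribKD libraries of experiment 1 after them, and the 6 control libraries last. The lowest control library, replicate 6, lay close above the highest scribKD library, at 15.7 against 14.8 RPKM.

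**Figure D1:**
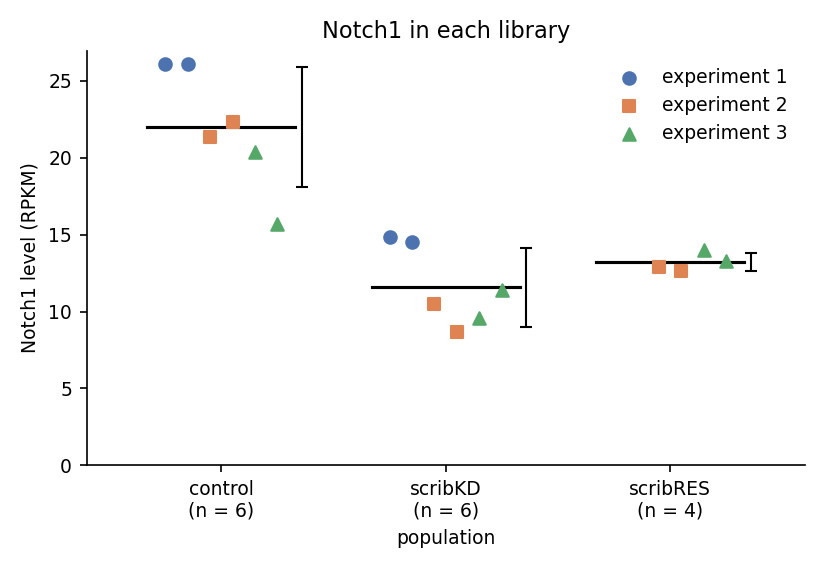
Notch1 level in RPKM (vertical axis) in each library of the 3 populations (horizontal axis), with colour and symbol giving the experiment, a line at the population mean and a bar of 1 SD to each side. The control libraries lie between 15.7 and 26.1 RPKM, the scribKD libraries between 8.67 and 14.8, and the scribRES libraries between 12.6 and 14.0.

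The population means were 22.0 ± 3.92 RPKM for control cells (SD, n = 6), 11.6 ± 2.56 for scribKD cells (SD, n = 6) and 13.2 ± 0.581 for scribRES cells (SD, n = 4). Between 1157 and 11290 reads per library lay on the transcript, for a counting error of 0.941 to 2.94 percent. Replicates of an experiment lay up to 29.9 percent apart in control cells (experiment 3), up to 20.5 percent apart in scribKD cells (experiment 2) and at most 5.18 percent apart in scribRES cells. Control replicate 2 was sequenced in 2 runs, which gave 25.8 and 26.4 RPKM and were counted as 1 library. Among all transcripts, 27.4 percent had a higher mean level than Notch1 in control cells, 39.1 percent in scribKD cells and 37.3 percent in scribRES cells.

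The lower level in scribKD than in control cells is the difference by which Notch1 was chosen. On the log2(RPKM + 0.1) scale it was -0.93 (standard error 0.15), or 0.525 times the control level, and all 6 same-numbered pairs of libraries had the lower value in scribKD, by -1.36 to -0.45. All scribKD libraries lay below all control libraries, as in 5.85 percent of the transcripts fitted. The 3 experiments gave -0.83, -1.19 and -0.77. Of the 9691 transcripts fitted in this comparison, 84 had a larger fall, and in all 9.52 percent passed the limits used throughout, an adjusted p under 0.05 with a log2 difference above 0.5 in size.

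The comparison of scribRES with scribKD cells asked whether Notch1 differs between resistant cells and the sensitive cells they came from. Against all 6 scribKD libraries it was 0.22 higher on the log2 scale (standard error 0.15, 95% interval -0.11 to 0.55), which did not pass (limma, adjusted p = 0.42). An exact two-sided permutation test over libraries gave p = 0.22, where the smallest possible is 0.0095. With labels exchanged within experiments 2 and 3 only, the exact permutation test gave p = 0.056, the smallest that design can give. The 2 experiments that hold scribRES cells gave similar values on their own, 0.42 and 0.38, and there every scribRES library was above every scribKD library. Once the experiment entered the fit as a replicate block, which sets aside the higher level of experiment 1, the difference was 0.40 (standard error 0.079, 95% interval 0.22 to 0.58, limma adjusted p = 0.0068) and all 4 pairs of equal number were higher in scribRES, yet under the log2 limit of 0.5. With the libraries of experiments 2 and 3 alone its adjusted p was 0.055. Of the 10342 transcripts tested, 1.46 percent passed without the block and 7.32 percent with it, and 10.3 percent had all scribRES libraries above all scribKD libraries within experiments 2 and 3, so Notch1 shares that pattern with many transcripts. These scribKD libraries are also the ones from whose contrast Notch1 was chosen.

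Against control cells, Notch1 stayed lower in scribRES cells. The difference was -0.71 on the log2 scale (standard error 0.13, limma adjusted p = 0.0071), or 0.61 times the control level, with no overlap between the 4 scribRES and the 6 control libraries. In all, 7.89 percent of 10324 tested transcripts passed in this comparison, and 7.81 percent had every scribRES library below every control library. The exact two-sided permutation test over all libraries, which ignores that experiment 1 has no scribRES cells, gave p = 0.0095, the smallest it can give. Within experiments 2 and 3 only, the exact permutation test gave p = 0.056, again the smallest possible, so that design cannot pass. In the fit that blocks by experiment the difference was -0.58 (standard error 0.10, limma adjusted p = 0.0027), where 14.7 percent of transcripts passed. The experiments gave -0.77 (experiment 2) and -0.39 (experiment 3), whose difference was not tested, and experiment 3 alone did not pass (limma, adjusted p = 0.055). After averaging the libraries of each experiment, which leaves 2 scribRES values, the adjusted p was 0.34. The control libraries here are those of the comparison that chose Notch1. Set side by side within an experiment, scribRES cells lay 35.3 percent of the way from scribKD to control on the log2 scale in experiment 2 and 49.4 percent in experiment 3.

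**Figure D2:**
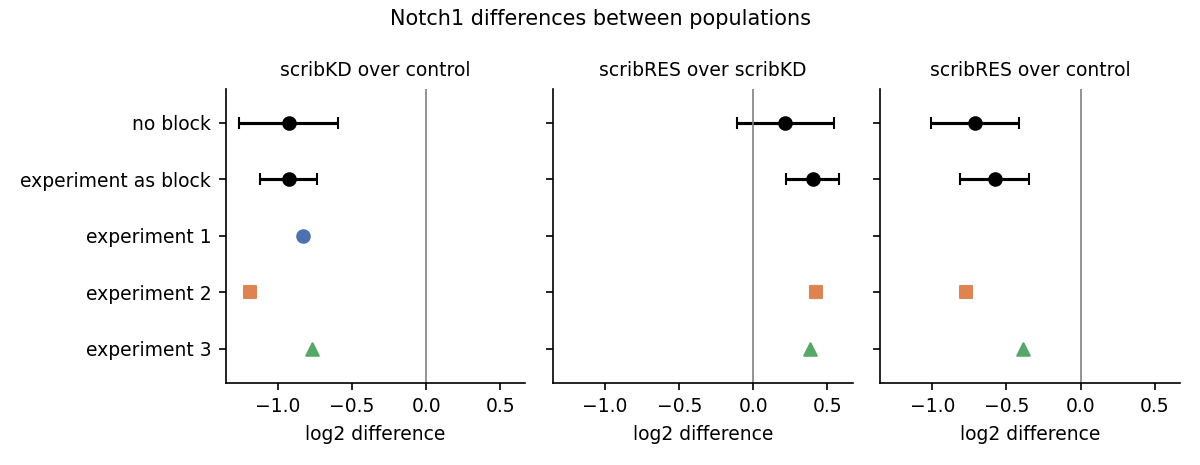
Log2 difference of Notch1 (horizontal axes) for the 3 pairs of populations, from the fit without a block, from the fit with the experiment as a replicate block (points with 95% intervals) and as the plain difference of means within each experiment (coloured symbols). The scribRES over scribKD interval spans 0 without the block, at -0.11 to 0.55, and lies above 0 with it, at 0.22 to 0.58.

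Differences between experiments were read as well. They use the libraries from which Notch1 was chosen, and the study's list required replicates to lie near each other, which favours transcripts with a like level in every experiment. Over the 12 libraries of experiments 2 and 3, with the population as a covariate, Notch1 differed by -0.02 on the log2 scale between experiment 3 and experiment 2 (standard error 0.095, 95% interval -0.23 to 0.19, limma adjusted p = 0.86), whereas 20.3 percent of 11529 tested transcripts passed there. The difference between scribKD and control cells was not shown to vary between the 3 experiments (limma F = 2.88, adjusted p = 0.26, with 4.04 percent of 11499 transcripts passing), although F ran from 1.06 without scribKD replicate 4 to 6.20 without control replicate 5 and the transcripts passing from 11 to 1369 with a library left out. Nor was that between scribRES and scribKD cells, whose value in experiment 3 minus that in experiment 2 was -0.04 (standard error 0.16, 95% interval -0.41 to 0.33, limma adjusted p = 0.86), in a comparison that 40.6 percent of 11347 transcripts passed at an adjusted p under 0.05. Of a list of 28 polarity genes, Scrib and Lin7c (XM_542543.3), a scaffold gene of a polarity complex, were the only ones with a named transcript. Lin7c is given because it passed in such a comparison. It was 0.52 lower on the log2 scale in experiment 3 than in experiment 2 (standard error 0.13, limma adjusted p = 0.0043), where 20.3 percent of transcripts passed. No pair of populations passed for Lin7c.

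The other genes of the pathway were taken from a list of 65 symbols, of which 9 had a named transcript. Names come mostly from the study's own lists of differing genes, so these 9 are not a random share of the pathway, and their counts are not independent evidence of a direction. By role, 2 of 8 ligands had a name (Jag2 and Dll1), 3 of 10 coactivators and DNA-binding partners (Maml2, Crebbp and Ep300), 2 of 12 corepressors (Spen and Tle1) and 1 of 17 regulators of trafficking and turnover (Nedd4). None of 9 proteases and gamma-secretase subunits and none of 5 sugar transferases that modify the receptor had one. Of the 8 members tested between scribKD and control cells, 1 was called higher and 3 lower, Notch1 among the latter, beside 4.25 percent of all tested transcripts called higher and 5.27 percent called lower. Their median log2 difference was -0.38, and -0.37 without Notch1, beside 0.02 over all transcripts tested.

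Jag2 (XM_548004.3), a Jagged ligand, was called lower in scribRES than in scribKD cells and had another order of populations than the receptor. In control cells its level was 23.0 and 18.5 RPKM in experiment 1, 16.3 and 15.6 in experiment 2 and at 8.33 and 7.59 in experiment 3. In scribKD libraries it stood at 17.7 and 24.6, at 21.0 and 19.4 and at 15.2 and 15.4 RPKM in the same order, and in scribRES libraries at 10.0 and 11.5 RPKM in experiment 2 and at 8.84 and 9.09 in experiment 3. Every scribRES library was thus below every scribKD library, as in 4.84 percent of all transcripts tested, while the control libraries spanned both. Jag2 fell in scribRES against scribKD cells, by 0.92 on the log2 scale (standard error 0.14, limma adjusted p = 0.0092), and all 4 same-numbered pairs had the lower value in scribRES. Fitted together with the control libraries, this difference had an adjusted p of 0.066, and after averaging each experiment 0.73. Its difference between scribKD and control cells was 0.43 (standard error 0.25), with 0.02, 0.34 and 0.94 in experiments 1, 2 and 3, and did not pass. Its level was also 0.55 lower in experiment 3 than in experiment 2 (limma adjusted p = 0.0012), unlike that of Notch1.

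Dll1 (XM_003431715.1), a Delta-like ligand, was a low transcript with 41 to 244 reads per run. Its median level was 1.12 RPKM in control (lowest 0.811, highest 1.53), 1.99 in scribKD (lowest 1.46, highest 3.07) and 2.07 in scribRES libraries (highest 2.24). It lay under the RPKM limit of 5 and was not tested in the fits used here. When the fit took in all transcripts without that limit, its log2 difference was 0.85 in scribRES over control (standard error 0.18, limma adjusted p = 0.022) and 0.00086 in scribRES over scribKD (95% interval -0.43 to 0.44). Every scribRES library was above every control library. Among the tested transcripts, which leave out low ones such as Dll1, 9.01 percent had that pattern, and the share among low transcripts was not computed.

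The ratio of ligand to receptor transcript was also read in each library. RPKM is scaled by transcript length, so the levels of both can be set against each other. Jag2 stood at 0.409 to 0.881 times the Notch1 level in control libraries, at 1.20 to 2.24 times in scribKD libraries and at 0.632 to 0.906 times in scribRES libraries. The scribKD libraries were thus the only ones with more Jag2 than Notch1. Within each experiment both scribRES ratios lay above both control ratios, at 0.778 and 0.906 against 0.763 and 0.696 in experiment 2 and at 0.632 and 0.684 against 0.409 and 0.484 in experiment 3. The Dll1 ratio was 0.0363 to 0.0777 times the Notch1 level in control, 0.101 to 0.269 in scribKD and 0.151 to 0.167 in scribRES libraries. These ratios hold the contrast by which Notch1 was chosen and are given without a test. Jag2 and Dll1 also owe their names to the study's list for that contrast, so both sides of each ratio were picked by it. How often ratios of other transcripts set the populations apart in this way was not computed.

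**Figure D3:**
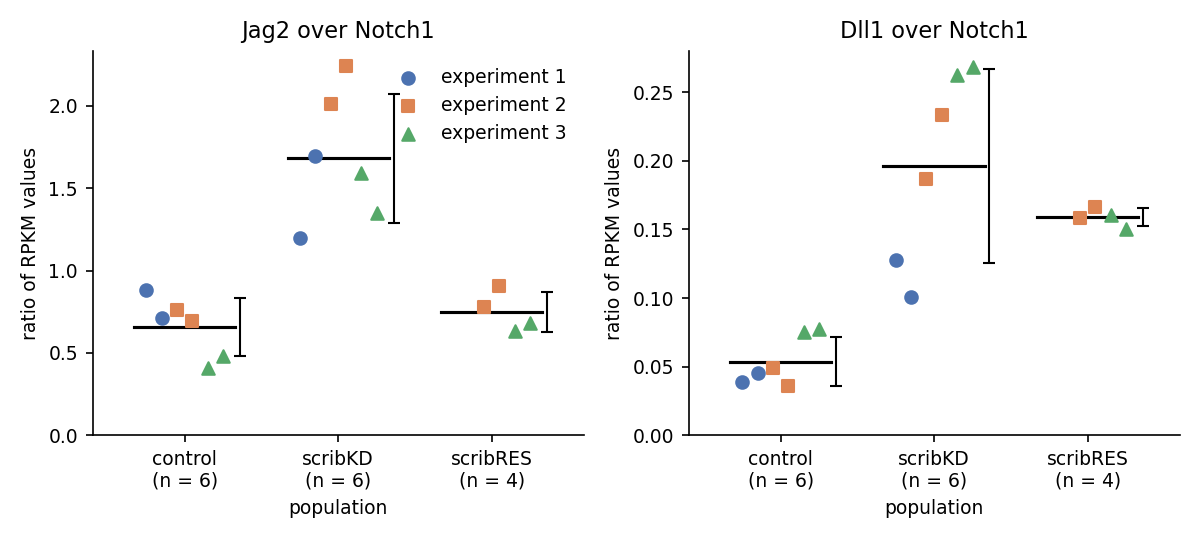
Ratio of the RPKM of the ligands Jag2 (left) and Dll1 (right) to that of Notch1 in each library, by population, with colour and symbol giving the experiment, a line at the population mean and a bar of 1 SD to each side. The Jag2 ratio is above 1 in the scribKD libraries alone, from 1.20 to 2.24, while the Dll1 ratio is at most 0.0777 in control libraries and at least 0.101 in the others.

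Among the nuclear coactivators, 1 of the 3 named was called higher in scribRES than in scribKD cells, and Maml2 was not tested there. Crebbp (XM_003434864.1), which encodes the acetyltransferase CBP, stood at 8.12 to 10.8 RPKM in control (median 9.77), at 5.42 to 6.80 in scribKD (median 5.78) and at 8.78, 8.88, 9.69 and 10.5 RPKM in scribRES libraries, which overlapped control and lay wholly above scribKD, as 4.59 percent of all transcripts tested did. It rose by 0.66 on the log2 scale in scribRES over scribKD (standard error 0.095, limma adjusted p = 0.0063), with 4 of 4 pairs in that direction. Its difference from control was -0.70 in scribKD (standard error 0.092, passed) and -0.03 in scribRES (standard error 0.10, 95% interval -0.26 to 0.20), where Notch1 kept -0.71. After averaging each experiment, the rise in scribRES over scribKD did not pass (limma adjusted p = 0.92).

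Ep300 (XM_003431496.1), the gene of the related acetyltransferase p300, followed the same course within a narrower range. Its medians were 17.4 RPKM in control, 12.9 in scribKD and 17.1 in scribRES libraries. The log2 difference was -0.39 in scribKD over control and 0.40 in scribRES over scribKD (standard error 0.077, limma adjusted p = 0.026), both under the limit of 0.5, and all 4 scribRES libraries were above all 6 scribKD libraries, as in 4.59 percent of all transcripts tested. Maml2 (XM_542234.3), a Mastermind coactivator, had medians of 5.65, 4.32 and 5.34 RPKM in the same order, with a log2 difference of -0.37 in scribKD and -0.08 in scribRES over control (95% interval -0.28 to 0.13), neither of which passed.

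Of the corepressors, Tle1 (XM_533516.3), of the Groucho family, was called lower in scribKD than in control cells, by -0.70 (standard error 0.15), with medians of 23.3 RPKM in control and 12.9 in scribKD libraries. In scribRES libraries it stood between 16.5 and 20.1 RPKM, 0.45 above scribKD (standard error 0.15, limma adjusted p = 0.11) and -0.25 from control (95% interval -0.56 to 0.07). With experiments 2 and 3 alone the scribKD call did not pass (adjusted p = 0.094), nor did it with experiment means (adjusted p = 0.14). Spen (XM_003638947.1), a large RBPJ-binding corepressor, was 0.29 higher in scribRES than in scribKD cells (standard error 0.11, limma adjusted p = 0.15), with medians of 7.98, 7.13 and 8.11 RPKM in control, scribKD and scribRES. Ep300 and Spen owe their names to the study's list for scribRES against scribKD, so their differences there were part of how they came to be named. Tle1, Crebbp, Maml2, Jag2, Dll1 and Nedd4 owe theirs to the list for scribKD against control. So do Cdkn1a and Gata3 among the target genes below. For all of these, the difference between scribKD and control cells was part of how they came to be named.

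Nedd4 (XM_846330.2), a ubiquitin ligase that acts on the trafficking of membrane receptors, differed from control in the opposite direction to Notch1. In control cells its level was 8.86 and 9.74 RPKM in experiment 1, 3.78 and 4.49 in experiment 2 and at 6.15 and 4.89 in experiment 3. In scribKD libraries it stood at 18.0 and 16.6, at 10.5 and 10.1 and at 11.1 and 11.3 RPKM in the same order, and in scribRES libraries at 16.8 and 16.9 RPKM in experiment 2 and at 11.9 and 12.8 in experiment 3. All libraries with tetracycline were above all control libraries, while 6.01 percent of tested transcripts had all scribKD and 9.01 percent all scribRES libraries above control. It was called higher in scribKD than in control, by 1.07 (standard error 0.23), and rose by 1.26 in scribRES over control (standard error 0.26, limma adjusted p = 0.0099), with no pass between scribRES and scribKD (0.20, adjusted p = 0.56). Averaged by experiment, neither call from control passed, at adjusted p = 0.12 for scribKD and 0.34 for scribRES.

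Taking the list as a whole, 1 of 7 tested members was called higher and 1 lower in scribRES than in scribKD cells (Crebbp and Jag2), beside 0.561 percent of all transcripts higher and 0.899 percent lower. Between scribRES and control cells, 1 of 8 was called higher and 1 lower (Nedd4 and Notch1), beside 4.24 percent and 3.65 percent of all transcripts. The median log2 difference was 0.29 in the former comparison, beside 0.0063 over all transcripts tested, and -0.05 in the latter, beside 0.02. Notch1 was thus the only named, tested member that was called lower in scribRES than in control. It was chosen by its level in these same control libraries, so this does not set it apart from the other members. After averaging each experiment that call was lost (limma adjusted p = 0.34). All members of the list owe their names to the study's lists of differing genes, Ep300 and Spen to that for scribRES against scribKD. Counts and medians of the list are thus no independent evidence of a direction.

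**Figure D4:**
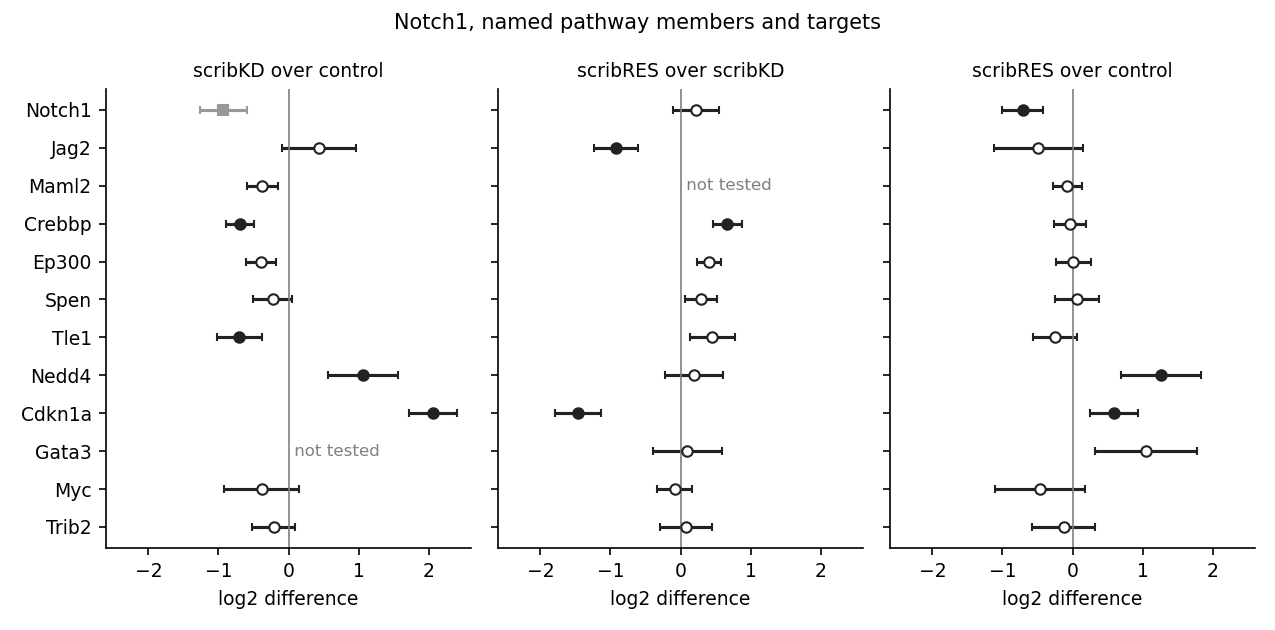
Log2 differences (horizontal axes) of Notch1, 7 named pathway members and 4 named target genes in the 3 pairs of populations, with 95% intervals from limma and no block. Filled circles passed an adjusted p under 0.05 and the log2 limit of 0.5, open circles did not, and the grey square is the Notch1 difference by which it was chosen. Crebbp rises by 0.66 from scribKD to scribRES while Jag2 falls by 0.92.

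Genes known as Notch targets in many cell types were taken from a list of 17, of which 4 had a named transcript. Hes and Hey factors, the best-known targets, were not among them, so no direct readout of receptor activity was analysed here. Cdkn1a (XM_532125.3), which encodes the cell cycle inhibitor p21 and responds to p53 as well, had medians of 132 RPKM in control, 594 in scribKD and 210.1 in scribRES libraries. The study reports p21 as the most strongly raised p53 target among its genes. It also found no rise of p21 after scribble knockdown in scribKD cells with p53 mutated. A part of Notch1 in the Cdkn1a level was not tested. Cdkn1a fell by 1.46 on the log2 scale in scribRES against scribKD (standard error 0.15, limma adjusted p = 0.00089), opposite in sign to the Notch1 difference, which did not pass. Its rise in scribRES over control, 0.59 (standard error 0.15, adjusted p = 0.027), was lost without control replicate 3 or without scribRES replicate 3, 4 or 6, with adjusted p from 0.051 to 0.089. Averaged by experiment, both scribRES calls were lost, at adjusted p = 0.18 against scribKD and 0.40 against control.

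Gata3 (XM_844060.1), a transcription factor gene under Notch control in T cells, had medians of 8.98, 14.8 and 16.2 RPKM in control, scribKD and scribRES libraries. It was 1.05 higher in scribRES than in control (standard error 0.33), which did not pass (limma adjusted p = 0.055) and passed when blocked by experiment (1.28, adjusted p = 0.00057), though not with experiment means (1.05, adjusted p = 0.43). Myc (NM_001003246.2), a growth regulator, was 0.47 lower in scribRES than in control (standard error 0.29, adjusted p = 0.29), with control libraries at 145, 93.5, 167, 168, 67.0 and 59.9 RPKM against 73.5 to 80.8 in scribRES. Its control level in experiment 3 lay below that of scribRES, and in experiment 2 above it. Trib2 (NM_001003218.1), a pseudokinase gene, stood at 32.5 to 59.1 RPKM in control, 32.8 to 48.0 in scribKD and 34.1 to 55.5 in scribRES libraries, and no comparison of populations passed. Of the target list, 1 of 3 tested was called higher in scribKD than in control, 1 of 4 lower in scribRES than in scribKD and 1 of 4 higher in scribRES than in control, Cdkn1a in each case, beside 4.25, 0.899 and 4.24 percent of all transcripts tested.

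Transcripts with a pattern like that of Notch1 were sought among the named ones with a mean above 5 RPKM, 1593 in number, by Pearson's r of log2(RPKM + 0.1) over the 16 libraries, which share populations and experiments. The 5 most alike were Clip2 (r = 0.94), C2cd2 (0.93), Mras (0.91), Epb4.1l1 (0.90) and Baz2a (0.90). Clip2, a gene of a microtubule-binding protein, had means of 22.7, 15.4 and 16.7 RPKM in control, scribKD and scribRES cells. Mras, a gene of a Ras-family GTPase, had 48.4, 32.3 and 35.7 RPKM, so both, like Notch1, were nearer scribKD than control in scribRES cells. That order was part of how they were picked, as the likeness used these same libraries. All 5 owe their names to the study's list for scribKD against control, the contrast that chose Notch1. Among transcripts without a name, 1 was more alike than Clip2 and 8 were more alike than Baz2a. The 3 most opposite were A730098P11Rik (r = -0.93), Nrbp1 (-0.92) and Chrnb1 (-0.90). Nrbp1, a gene of a pseudokinase, had means of 74.6, 114.6 and 111.7 RPKM.

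**Figure D5:**
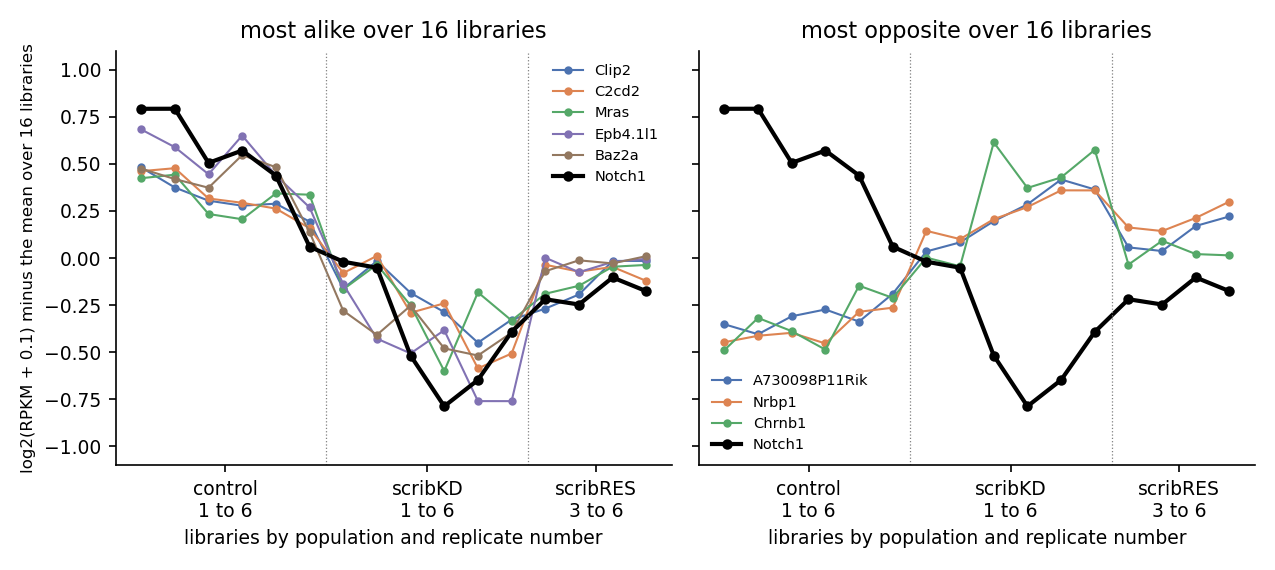
Level of Notch1 (black) and of the named transcripts most like it (left) and most opposite to it (right) in the 16 libraries, as log2(RPKM + 0.1) minus the transcript's mean over the libraries (vertical axis), with libraries in order of population and replicate number and dotted lines between populations. Pearson's r with Notch1 is 0.90 to 0.94 on the left and -0.93 to -0.90 on the right.

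After each population's mean had been taken off, so that only the spread between libraries of a population was left, a different set came first. It held Wee1 (r = 0.90), a kinase gene that restrains entry into mitosis, Dsp (0.88), the gene of the desmosome protein desmoplakin, the phosphate transporter gene Slc20a1 (0.87), the glucocorticoid receptor gene Nr3c1 (0.84) and Mapt (0.83), the gene of the microtubule-binding protein tau. Wee1 was higher in scribKD (60.9 RPKM) than in control cells (38.5 RPKM), opposite to Notch1, while the pair varied alike between libraries of a population. Scrib and Notch1 had r = 0.73 over the 16 libraries and -0.48 within populations. Among the pathway genes, r over the libraries was 0.74 for Maml2, 0.73 for Crebbp, 0.67 for Tle1, 0.66 for Ep300, 0.49 for Spen, 0.05 for Jag2 and -0.50 for Nedd4. Within populations it was 0.67 for Nedd4, 0.60 for Jag2, 0.57 for Crebbp, 0.49 for Spen, 0.48 for Maml2, 0.47 for Ep300 and 0.11 for Tle1. These values are a description over libraries that share experiments.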

How the data were processed

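RNA-seq was made by the study with a TruSeq kit from 16 libraries in 17 sequencing runs. Per the labels and methods, the authors trimmed reads (cutadapt 1.0), mapped them to the dog genome with TopHat2 2.0.6 and deposited RPKM values per transcript, without counts. Whole reads and library totals were recovered from the RPKM steps (99.9942 percent of values above 0 came out whole within 0.01 reads). The 2 runs of control replicate 2 (mean chi-square per transcript 1.12, against 25.3 between control replicates 1 and 2) were averaged as 1 library.

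Differences were fitted on log2(RPKM + 0.1) with limma 3.58.1 (intensity trend, two-sided, Benjamini-Hochberg) in R 4.3.3, each pair of populations alone, over transcripts that in 1 population had every replicate above 5 RPKM and at most 2 times apart. Calls needed an adjusted p under 0.05 and a log2 difference above 0.5 in size, or the adjusted p alone for differences between experiments in a population effect. Fold changes of low transcripts are understated on this scale. The script was tested on simulated data. Exact permutation tests used scipy 1.17.1.

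Per the labels, libraries carry an experiment and a replicate number. Deviations from group means correlated at 0.362 or more between same-numbered scribKD and control libraries. For scribRES the lowest was 0.145 with scribKD and 0.124 with control. Pairs of 1 experiment correlated as well with the other number (mean 0.73 against 0.648 for scribKD and control). These means were 0.389 against 0.384 for scribRES and scribKD and 0.408 against 0.415 for scribRES and control. The correlations thus tied libraries by experiment and did not single out the number. Numbers were still taken to pair the samples, so counts of same-numbered pairs rest on the labels alone. The experiment served as the replicate block beside the number.

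Gene names came from the study's first list of differing genes (1388 transcripts), its second list only (172) or a RefSeq gene table of another dog assembly (437), 9.26 percent of transcripts in all. Of 251 transcripts named in both lists, 27 had different names and the first was used. A second-list name already given to another transcript was dropped (11 cases). The lists' own fold changes and p-values were not used. Notch1, the gene lists and the alternatives were chosen with earlier results of these data known. Named genes were Notch1, Scrib, every named member of the pathway and target lists, other polarity genes only if called in a comparison (Lin7c), and the 5 most alike, 3 most opposite and 5 most alike within populations. Items that are not reported here were left out of these lists and of the ranking by likeness. Genome coordinates and sequences were not used here. Reads of related transcripts may have been split in ways the RPKM values do not show, and strand use in counting is not given in the sources used here.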

Additional observations from a re-analysis of the deposited data

Results flagged for a closer look

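Leaving aside the genes chosen by likeness, 15 genes were named, of which Dll1 was not tested here. Of the others, 7 had a difference between scribRES and scribKD cells that changed between experiments 2 and 3. This was read by limma's interaction test, which 40.6 percent of all tested transcripts passed at an adjusted p under 0.05. The values below are experiment 3 minus experiment 2 on the log2 scale, from 4 libraries per experiment. Notch1 was not among them.

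Trib2 had the largest change, 0.89 (limma adjusted p = 5.7e-05), from -0.47 in experiment 2 to 0.42 in experiment 3. Scrib itself changed by 0.64 (limma adjusted p = 0.0011), from -0.40 to 0.24. For Nedd4 the change was -0.56 (limma adjusted p = 0.0026), from 0.70 to 0.14. For Myc it was 0.51 (limma adjusted p = 0.0025), from -0.37 to 0.14. For Tle1 it was 0.39 (limma adjusted p = 0.011), from 0.23 to 0.61. For Cdkn1a it was 0.28 (limma adjusted p = 0.028), from -1.53 to -1.25. For Lin7c it was 0.36 (limma adjusted p = 0.022), from -0.56 to -0.19.

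None of the 45 groups of libraries of a named gene held a library far from the others by Dixon's test at the 95% level, where chance gives about 1 in 20.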

How the results depend on the processing

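Notch1 in scribKD over control kept its direction in every alternative (-1.19 to -0.77, and -1.02 to -0.85 with each library left out). In scribRES over scribKD it stayed higher and under the limits throughout, at 0.20 to 0.42 (adjusted p 0.0068 to 0.92), 0.40 when the number or the experiment was the replicate block (adjusted p 0.048 and 0.0068), and 0.14 to 0.29 with a library left out. In scribRES over control it was called under every alternative except experiment means (-0.71, adjusted p = 0.34) and experiment 3 alone (-0.39, adjusted p = 0.055) and the exact permutation test within experiments (-0.58, p = 0.056, the smallest it can give), with -0.81 to -0.66 when a library was left out. Experiment 3 over experiment 2 turned sign without control replicate 3, 4 or 6 (range -0.074 to 0.060, adjusted p 0.52 to 0.97), and the scribRES over scribKD difference by experiment without scribKD replicate 4 or 6 (-0.17 to 0.095). The F of the scribKD effect by experiment ran from 1.06 to 6.20 with a library left out and never passed. Fits on recovered reads, within single experiments and of scaling with the block, and the permutation tests, were added after seeing the data.

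With the replicate block, numbers pairing the samples, other signs turned for values near 0: Trib2 (-0.022) and Scrib (-0.076) in scribRES over scribKD and Ep300 in scribRES over control (-0.027), alike with experiments 2 and 3 only. Median-ratio scaling gave -0.015 for Ep300 and -0.019 for Lin7c in scribRES over control, and with the block -0.030 for Lin7c, -0.021 for Trib2, -0.074 for Scrib and -0.061 for Ep300. Experiment 2 alone turned Trib2 (-0.47) and Scrib (-0.40) in scribRES over scribKD and Ep300 (-0.19), Crebbp (0.027), Spen (-0.16) and Lin7c (-0.43) in scribRES over control. Experiment 3 alone turned Myc in all 3 pairs (0.20, 0.14 and 0.34), and Jag2 (0.17) and Trib2 (0.021) in scribRES over control. Leaving out libraries spanned -0.035 to 0.20 for Trib2, -0.020 to 0.24 for Gata3 and -0.011 to 0.13 for Scrib in scribRES over scribKD, and -0.061 to 0.057 for Ep300, -0.13 to 0.12 for Lin7c, -0.082 to 0.0020 for Crebbp and -0.037 to 0.13 for Spen in scribRES over control. The cause was not tested. Of the values of the other named genes, 968 kept direction and call, 42 turned, 24 gained and 14 lost a call.

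Transcripts called in scribKD over control went from 923 to 199 with experiment means and to 1419, 1770 and 1904 in experiments 1, 2 and 3 alone. In scribRES over scribKD they went from 151 to 404 (number as block), 757 (experiment as block), 749 (the same with scaling), 314 (experiments 2 and 3), 2474 and 643 (experiments 2 and 3 alone), 51 to 227 with a library left out, and 0 by limma with experiment means (463 at an unadjusted p under 0.05). In scribRES over control they went from 815 to 1513, 1492 with scaling, 3575 in experiment 2 alone, 474 to 1026 with a library left out, and 0 by limma with experiment means (1153 unadjusted). Without the filter, 3581 in place of 2341 differed between experiments 3 and 2. For the scribKD effect by experiment, 464 became 187 without the filter, 306 without the trend and 11 to 1369 with a library left out. Spearman correlation kept 2 of the 5 most alike transcripts.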
